A study of Mus musculus with 8 samples.

Results

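The genes of extracellular ATP and adenosine signalling were followed in mouse eosinophils, sorted either from bone marrow or from the small intestine. The 10 genes were the rows of the deposited expression table whose symbol was Entpd1, Nt5e, Ada, Adora2a, Adora2b, Adora3, P2rx4, P2rx7, P2ry2 or P2ry14, out of 38392 genes in all, and each symbol matched 1 row. They were chosen by name and function with earlier results of these data known, and the rule itself used no measured value. Of the 10, 9 were higher in the small intestine and 1, Ada, was lower.

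RNA was sequenced from 4 libraries per tissue, all from female wildtype mice of the strain given as C57/BL6, without treatment. The labels gave no age. Small intestinal cells were gated as CD11b+ MHC-II- SiglecF+ SSChi and bone marrow cells as CD11b+ Ly6G- Ly6C- SiglecF+ SSChi. The intestine was stripped of epithelium, digested with warm enzyme and enriched on anti-CD11b beads, and bone marrow was flushed, freed of red cells by lysis and filtered, with neither digestion nor beads, so tissue, handling and gate cannot be told apart. The columns of the table named the tissue of each library but matched no single animal, and libraries are called by their columns (BM_1, BM_3, BM_4, BM_5, SI_6, SI_7, SI_10 and SI_11). Nothing tied a column to its own mouse, so the p-values measure the spread between these libraries.

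Cells release ATP and other nucleotides when they are stressed, damaged or stimulated. At the cell surface, ectonucleotidases cut ATP stepwise to AMP and then to adenosine, which is taken up by transporters or turned into inosine. ATP opens P2X ion channels, several nucleotides and nucleotide sugars bind the G protein coupled P2Y receptors, and adenosine binds its own receptors, which are known in the gut for restraining inflammation. Eosinophils carry receptors of all these classes, and nucleotides are known to attract and activate them.

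The libraries held 11508002 to 21289164 reads in genes. BM_5 had reads for 30886 genes, against 19713 to 24592 in the other bone marrow libraries, and SI_6 had the highest level of 12 epithelial genes, a summed normalised count of 31340 against 4588 to 14576 in the other small intestine libraries and 68.9 to 155 in bone marrow. Of 10 eosinophil genes checked, 6 were higher in the small intestine (Siglecf, Ccr3, Il5ra, Itgam, Gata1 and Alox15) and the granule genes Epx, Prg2, Ear1 and Ear2 were lower. Their summed normalised count was 14130 to 19039 in bone marrow (0.11% to 0.15% of reads). In the small intestine it was 65150 to 98938 (0.419% to 0.575%). In bone marrow most of this sum was Itgam, the gene of CD11b, at a mean of 14137. The rest ran from a mean of 10.9 (Gata1) to 1831 (Prg2), with Ccr3 at 70.9. All 12 neutrophil precursor genes were lower in the small intestine, with a summed normalised count of 382947 to 480164 in bone marrow (3.02% to 3.46% of reads) and 534 to 654 in the small intestine. All 10 genes of a tissue dissociation response (Fos, Jun, Egr1 and others) were higher in the small intestine, at 58832 to 77959 against 472 to 731. Of 16 macrophage and dendritic cell genes, 14 were higher and none lower, at 29832 to 39164 against 1133 to 1301. None of the genes in these lists was without reads in either tissue. Higher in the small intestine were also 7 of 8 fibroblast genes (180 to 806 against 5.7 to 69.7) and 8 of 8 endothelial genes (7489 to 9917 against 382 to 496, of which Pecam1, also a leukocyte gene, made up 6979 to 9512 in the small intestine). What these shifts contributed to the differences below was not tested, and in bulk samples fewer cells of a type and less RNA per cell cannot be told apart.

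A normalised count below is the number of reads, recovered from the deposited values, over that library's size factor. A difference is the small intestine mean less the bone marrow mean of the deposited values, which are log2-like: 1 unit is about a factor of 2 where reads are many and less where they are few. Differences carry the standard error (SE) of limma, and adjusted p-values are those of limma after Benjamini-Hochberg adjustment over all 38392 genes, called under 0.05.

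Of all genes in the table, 22.0% were called higher in the small intestine and 12.9% lower, and the median difference was 0.37. Every small intestine library lay above every bone marrow library for 20.3% of genes and below for 13.9%. Against that background, 9 of the 10 genes were called higher, 1 was called lower, and the groups did not overlap for any of the 10. Calls were more common among genes with more reads. In a fit limited to the 16215 genes averaging at least 10 reads, 6362 were called higher and 5462 lower. The 10 genes passed that filter, which averaged over both tissues, and kept their calls. Adora2b and Adora3, with 11 and 38 reads in bone marrow, passed only through their small intestine reads. Passing the filter is therefore no support for their calls. The median difference of the 10 was 3.44. Without SI_6 and BM_5 the counts were again 9 and 1. The split of all calls depended on the scale: 63.2% of called genes were higher as deposited, 29.5% after each library was centred on its median, 45.8% after quantile normalisation and 51.2% on log2 RPM (counts scaled to the library total, with a pseudocount of 1, which changes both the scaling and the treatment of low values). Of the 10 genes, Nt5e lost its call under the first and the second of these alternatives and the other 9 kept their calls under all 3.

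**Figure D1:**
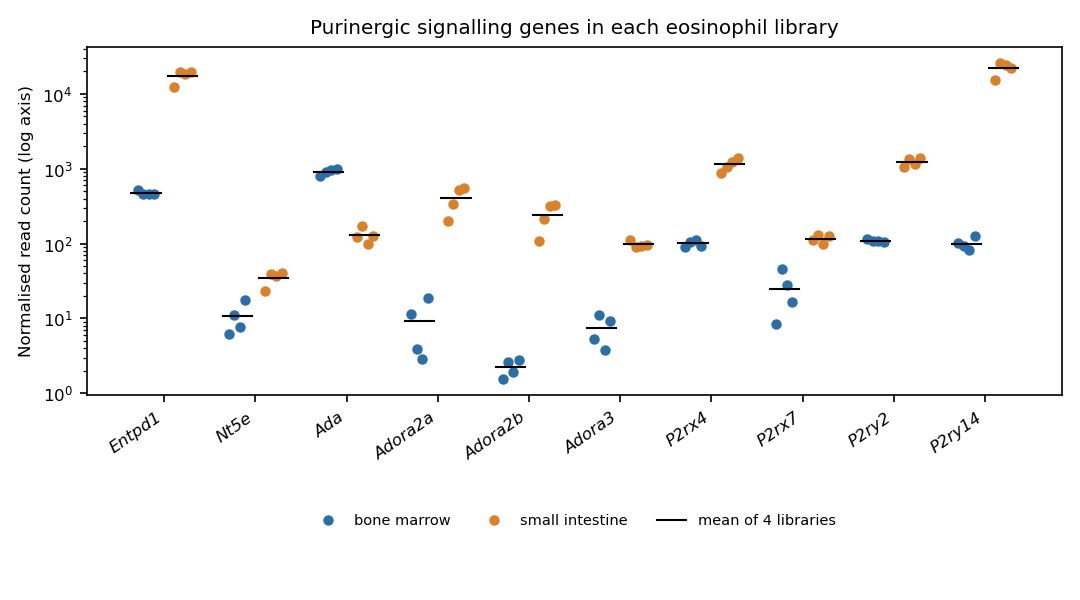
Normalised read counts (log axis) of the 10 genes in the 4 bone marrow and 4 small intestine libraries, with a line at each group's mean. The small intestine points lie above the bone marrow points for every gene but Ada, where they lie below, and P2ry14 has the widest gap, from a mean of 99.8 to 22099.

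Entpd1 encodes CD39, the ectonucleotidase that turns ATP and ADP into AMP. Its normalised count was 524, 465, 459 and 458 in BM_1, BM_3, BM_4 and BM_5, and 12304, 19681, 18671 and 19796 in SI_6, SI_7, SI_10 and SI_11. The groups were far apart, with BM_1 the highest of its group and SI_6 the lowest of its own. Entpd1 rose 37-fold by the group means, with a difference of 5.17 ± 0.22 (SE, n = 4 each, limma adjusted p = 1.34e-06). By mean normalised count it ranked 4530th among 38392 genes in bone marrow and 94th in the small intestine.

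Nt5e encodes CD73, which turns AMP into adenosine. It was scarce in both tissues, with normalised counts of 6.13, 11.1, 7.66 and 17.7 in bone marrow and 22.9, 38.8, 37.2 and 40.3 in the small intestine, in the same library order. The highest bone marrow library, BM_5, lay just under the lowest small intestine library, SI_6. The difference was 1.48 ± 0.30 (limma adjusted p = 0.00508), on 52 and 117 reads in all. After median centring it was 0.58 (adjusted p = 0.321) and after quantile normalisation 0.62 (adjusted p = 0.126), so the call for Nt5e rested on the scaling. These scalings moved the median of all genes from 0.37 to -0.53 and -0.03.

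Within each library, Entpd1 had 40 to 132 times the reads per kb of exon of Nt5e in bone marrow and 757 to 827 times in the small intestine. The ranges did not overlap, and the 4 small intestine libraries were close to each other in this ratio. Acpp, the acid phosphatase whose membrane form also turns AMP into adenosine, had normalised counts of 798 to 929 in bone marrow and 5450 to 8609 in the small intestine. Its difference was 3.0 ± 0.21 (limma adjusted p = 1.44e-05), an 8.13-fold rise of the mean. Acpp exceeded Nt5e per kb in every library, 56.5 to 178 times in bone marrow and 205 to 279 times in the small intestine, and these ranges also did not overlap.

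Ada encodes adenosine deaminase, which turns adenosine into inosine, and was the 1 gene of the 10 that fell. Its normalised count was 808, 900, 951 and 1004 in BM_1, BM_3, BM_4 and BM_5, and 122, 172, 99.5 and 127 in SI_6, SI_7, SI_10 and SI_11. Every small intestine library was far below every bone marrow library. Bone marrow held 7.04 times the small intestine mean, a difference of -2.80 ± 0.22 (limma adjusted p = 2.54e-05). The neutrophil precursor genes were high in the same bone marrow libraries, and their part in the Ada difference was not tested. In the ratio of Entpd1 to Ada per kb of exon, bone marrow libraries lay between 0.164 and 0.233 and small intestine libraries between 36.1 and 67.3, so the order of the 2 genes turned over between the tissues.

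The 250 bases before a start site are shown for the gene of each direction among these enzymes, Entpd1 (chr19:40612116-40612365, plus strand) and Ada (chr2:163750240-163750489, minus strand), from RefSeq on GRCm38.p6, in transcript direction. Capitals mark letters of 5 searched motifs on either strand: GCGTG (the core bound by the aryl hydrocarbon receptor, AHR), ACGTG (hypoxia response core), TGANTCA (AP-1), TGACGTCA (cyclic AMP response element) and GATAA (GATA).
Entpd1: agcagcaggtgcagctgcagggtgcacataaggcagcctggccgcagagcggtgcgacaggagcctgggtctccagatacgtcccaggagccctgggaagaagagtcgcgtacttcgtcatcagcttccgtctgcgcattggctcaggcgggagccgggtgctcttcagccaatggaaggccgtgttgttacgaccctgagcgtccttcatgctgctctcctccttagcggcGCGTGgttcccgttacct
Ada: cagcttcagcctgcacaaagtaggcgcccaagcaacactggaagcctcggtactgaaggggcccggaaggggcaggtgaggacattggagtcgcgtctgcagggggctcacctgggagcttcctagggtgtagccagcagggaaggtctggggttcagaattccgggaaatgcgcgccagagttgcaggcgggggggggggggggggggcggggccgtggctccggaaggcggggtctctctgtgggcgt
The window of Entpd1 held 1 AHR core, beginning 18 bases before the start. A second Entpd1 start site in RefSeq had none of the 5 motifs in its window, and Ada held none of the 5 motifs. GCGTG was in 28.2% of 32851 such windows, so a match is common and is a description of letters only.

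The adenosine receptors were nearly silent in bone marrow. Adora2a and Adora2b encode receptors that raise cyclic AMP, the second with lower affinity for adenosine, and Adora3 and Adora1 encode receptors that lower it. Adora2a had normalised counts of 11.5, 3.91, 2.87 and 18.6 in bone marrow and 202, 336, 523 and 559 in SI_6, SI_7, SI_10 and SI_11. All small intestine libraries were far above the highest bone marrow library, BM_5. The difference was 5.11 ± 0.50 (limma adjusted p = 9.15e-05), a 43.9-fold rise of the mean.

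Adora2b had 11 reads in all 4 bone marrow libraries together, with normalised counts of 1.53, 2.61, 1.91 and 2.79. In SI_6, SI_7, SI_10 and SI_11 it had 109, 211, 321 and 327, far above every bone marrow library. The mean rose 109-fold, with a bone marrow mean of 2.21 whose 95% exact Poisson interval ran from 1.11 to 3.97 and covers counting error only. The difference was 5.41 ± 0.35 (limma adjusted p = 1.17e-05). It was 6.43 with limma voom on the recovered reads and 3.68 on log2 RPM, since the size of a change from so few reads depends on how low values are treated.

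Adora3 had 5.36, 11.1, 3.83 and 9.30 in bone marrow and 111, 90.1, 91.9 and 96.0 in the small intestine. The small intestine libraries were close to each other and none overlapped bone marrow. The difference was 3.28 ± 0.26 (limma adjusted p = 3.33e-05). Adora3 shares 779 exon bases, 20.9% of its exons, with Tmigd3 on the same strand, and Tmigd3 went from a mean of 31.1 to 216. How reads in the shared bases were assigned is not given in the sources used here, so the level of Adora3 is uncertain. Adora1, the fourth receptor, had 7 reads in bone marrow and 17 in the small intestine, with a difference of 0.93 ± 0.48 that did not pass the test (limma adjusted p = 0.18).

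Per kb of exon, Adora2a and Adora2b stood at the same level in the small intestine. The mean was 132 for Adora2a and 131 for Adora2b, and the ratio of the pair was 1.11, 0.959, 0.983 and 1.03 in SI_6, SI_7, SI_10 and SI_11. In bone marrow the same ratio ran from 0.904 to 4.52, on few reads. Adora3, at 26.1 per kb, was below both in each small intestine library, and the ratio of Adora2a to Adora3 ran from 2.21 in SI_6 to 7.10 in SI_11. Where transcript length was taken as the mean over coding transcripts instead, Adora2a (389 per kb) lay above Adora2b (131) without overlap, so the equal level depends on the length used. With that length, Adora3 (62) lay above Adora2b (59.2) in SI_6, so the place of Adora3 depends on it too.

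The promoter window is shown for Adora2b, the adenosine receptor with the fewest reads in bone marrow among the 3 that rose (chr11:62248734-62248983, plus strand, GRCm38.p6, from RefSeq), with the same marking.
Adora2b: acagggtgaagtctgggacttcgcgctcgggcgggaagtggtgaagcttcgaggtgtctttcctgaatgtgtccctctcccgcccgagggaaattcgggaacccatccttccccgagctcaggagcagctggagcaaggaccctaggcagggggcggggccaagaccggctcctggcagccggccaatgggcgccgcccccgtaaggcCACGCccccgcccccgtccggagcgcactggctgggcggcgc
It held 1 AHR core on the opposite strand, written CACGC here and beginning 42 bases before the start. Adora3 held 1 AP-1 match 98 bases before its start, a motif found in 6.7% of all windows. No window was matched for Adora2a.

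P2rx4 and P2rx7 encode ATP-gated ion channels, P2RX7 being the one that opens only at high ATP and drives inflammasome activation in myeloid cells. P2rx4 had normalised counts of 88.9, 106, 113 and 93.9 in bone marrow and 891, 1065, 1223 and 1408 in the small intestine. The groups were well apart, and the difference was 3.45 ± 0.21 (limma adjusted p = 7.65e-06), an 11.4-fold rise. P2rx7 had 8.43, 45.6, 27.8 and 16.7 in BM_1, BM_3, BM_4 and BM_5 and 112, 130, 99.5 and 126 in the small intestine.

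The bone marrow libraries of P2rx7 were widely spread, with BM_3 the highest, and all lay below the small intestine. The difference was 2.28 ± 0.41 (limma adjusted p = 0.00259), a 4.75-fold rise. P2rx7 and P2rx4 are neighbours on chromosome 5, 16.1 kb apart on the same strand. P2rx4 exceeded P2rx7 per kb of exon in all 8 libraries, 1.98 to 8.96 times in bone marrow and 6.73 to 10.4 times in the small intestine, with overlapping ranges.

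Among the 7 P2X genes, P2rx1, which encodes a fast desensitising ATP channel, had the highest level per kb in both tissues, at a mean of 89.5 in bone marrow and 669 in the small intestine. It rose by 2.89 ± 0.20 (limma adjusted p = 1.33e-05). P2rx3, known from sensory nerves, fell, with a difference of -1.39 ± 0.37 (adjusted p = 0.0187), from normalised counts of 16.9 to 66.9 to counts of 10.7 to 16.4. Its call was lost when BM_3, BM_4, SI_7 or SI_11 was left out (limma adjusted p of 0.0501 to 0.0601) or SI_6 and BM_5 together (0.0844). P2rx2, P2rx5 and P2rx6 had differences of -0.31, 0.75 and 1.52 and did not pass the test. In all, 3 of the 7 P2X genes were higher and 1 was lower, beside 22.0% and 12.9% of all genes. Among the 16215 genes averaging at least 10 reads, 6362 were higher and 5462 lower. These counts do not set the P2X genes apart.

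P2ry2 encodes a receptor for ATP and UTP, and P2ry14 one for UDP-glucose and related UDP-sugars. P2ry2 had normalised counts of 116, 109, 107 and 105 in bone marrow and 1054, 1337, 1149 and 1384 in the small intestine. The bone marrow libraries were nearly level and the groups were well apart. P2ry2 rose 11.3-fold, a difference of 3.44 ± 0.18 (limma adjusted p = 3.56e-06).

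P2ry14 had 101, 92.0, 81.3 and 125 in BM_1, BM_3, BM_4 and BM_5, and 15315, 26038, 24511 and 22532 in SI_6, SI_7, SI_10 and SI_11. SI_6 was the lowest of its group and still far above BM_5, the highest of bone marrow. P2ry14 rose 222-fold, with a difference of 7.73 ± 0.24 (limma adjusted p = 3.3e-07), the largest of the 10 genes. It moved from rank 8704 to rank 68 of 38392 genes by mean normalised count. Summed over the 18 adenosine, P2X and P2Y receptor genes, the level per kb of exon was 245 in bone marrow, led by P2rx1 with 36.5%, and 4175 in the small intestine, led by P2ry14 with 47.9%.

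**Figure D2:**
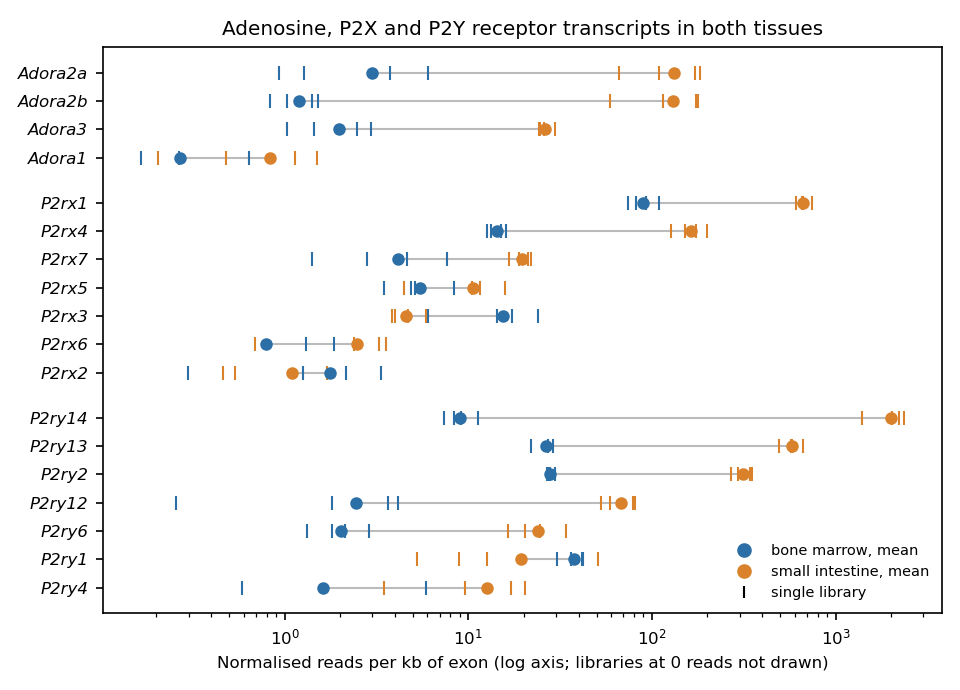
Mean level of the 18 receptor genes in normalised reads per kb of exon (log axis) in bone marrow and small intestine, with ticks for single libraries. P2ry14 moves from 9.02 to 1998 and ends above all other receptors, while P2rx2, P2rx3 and P2ry1 have lower means in the small intestine.

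P2ry14 lies on chromosome 3 inside the span of Med12l, on the opposite strand, with no shared exon base. The neighbouring genes were looked at after the value of P2ry14 was known. P2ry12 and P2ry13, receptors for ADP, lie in the same span on the strand of P2ry14, and both had differences of 4.38 (SE 0.45 and 0.19). Gpr171 lies there too, with a difference of 1.52 ± 0.19, and Med12l itself had 4.34 ± 0.19, all called by limma (adjusted p between 1.48e-06 and 0.000408). These 5 genes were all higher in the small intestine, with P2ry14 first. The level of Med12l reached a mean of 118.9 per kb of exon in the small intestine and that of P2ry14 1998. Without the strand setting of the counting, reads of introns of either gene that fell in exons of the other could not be told apart.

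The ratio of P2ry14 to P2ry13 per kb of exon was 0.27 to 0.511 in bone marrow and 2.81 to 4.10 in the small intestine, and that of P2ry14 to P2ry2 was 0.269 to 0.421 and 5.16 to 7.58. Both ratios were higher in every small intestine library. Which gene of a pair came first in bone marrow depends on the length used: with the mean length of coding transcripts, P2ry14 (73.8) lay above P2ry2 (50.9) there without overlap. Of the 7 P2Y genes, 6 were called higher and none lower, beside 22.0% and 12.9% of all genes. P2ry6, a receptor for UDP, rose by 2.94 ± 0.27 (limma adjusted p = 6.93e-05). P2ry1, a receptor for ADP, was the exception: normalised counts were 131 to 182 in bone marrow and 54.1, 38.3 and 22.5 in SI_7, SI_10 and SI_11, but 219 in SI_6. Its difference of -1.42 ± 0.59 missed the threshold (limma adjusted p = 0.0996) and was -2.04 without SI_6 (adjusted p = 0.00211). The difference of P2ry4, a receptor for UTP, was 3.35 ± 0.92 (adjusted p = 0.0216), with overlapping groups, and its call was lost on leaving out any 1 of BM_1, BM_3, BM_4, SI_6, SI_7 and SI_10 (0.0586 to 0.0793).

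For P2ry14, RefSeq lists several start sites, and the window shown is the one that holds no exon base of the gene (chr3:59131329-59131578, minus strand, GRCm38.p6). No GENCODE M21 transcript begins at that start.
P2ry14: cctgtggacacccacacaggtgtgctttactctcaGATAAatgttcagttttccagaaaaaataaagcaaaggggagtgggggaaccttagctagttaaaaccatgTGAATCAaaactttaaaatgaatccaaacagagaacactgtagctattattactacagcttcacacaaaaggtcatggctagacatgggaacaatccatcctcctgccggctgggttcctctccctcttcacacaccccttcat
It held an AP-1 match, TGAATCA, beginning 144 bases before the start and a GATA match 215 bases before it. Over the 15 windows of the 9 matched genes, the AHR core was present in 6, the AP-1 motif in 4, the GATA motif in 4, the hypoxia core in 1 and the cyclic AMP response element in none. The shares among all windows were 28.2%, 6.7%, 22.6%, 16.6% and 1.5%. Windows of 1 gene overlap in part, so these are not independent counts.

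In the order of levels per kb of exon, bone marrow ran from Ada (457) over Entpd1 (85.4), P2ry2 (27.9), P2rx4 (14.3) and P2ry14 (9.02) to the rest at under 5. Ada, Entpd1, P2ry2 and P2rx4 each stood apart from the next, and from P2ry14 downwards each gene overlapped the next, so P2ry14, P2rx7, Adora2a, Adora3, Nt5e and Adora2b were not separated from their neighbours. In the small intestine the order was Entpd1 (3156), P2ry14 (1998), P2ry2 (313), P2rx4 (163), Adora2a (132), Adora2b (131), Ada (65.0), Adora3 (26.1), P2rx7 (19.6) and Nt5e (4.05). Entpd1 overlapped P2ry14, and P2rx4, Adora2a and Adora2b each overlapped the next, while the other neighbours were apart. With the mean length of coding transcripts, P2ry14 (73.8) moved up in bone marrow to just after Entpd1 (239), followed by P2rx4 (59.7) and P2ry2 (50.9), and both P2ry14 and P2rx4 overlapped the next gene. With the same length, P2ry14 (16359) stood above Entpd1 (8824) in the small intestine without overlap, so their order depends on the length used. Ada was first of the 10 in bone marrow and Entpd1 or P2ry14 first in the small intestine under either length.

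The other genes of the pathway came from a list of 41, of which 39 were in the table, and Ankh and Pnp were not analysed here. Of the 39, 20 were called higher and 5 lower in the small intestine, and 14 were not called. Of all genes, many of them with few reads, 22.0% were higher and 12.9% lower. The median difference of the 39 was 1.52. Without SI_6 and BM_5 the counts were 20 and 5 again.

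**Figure D3:**
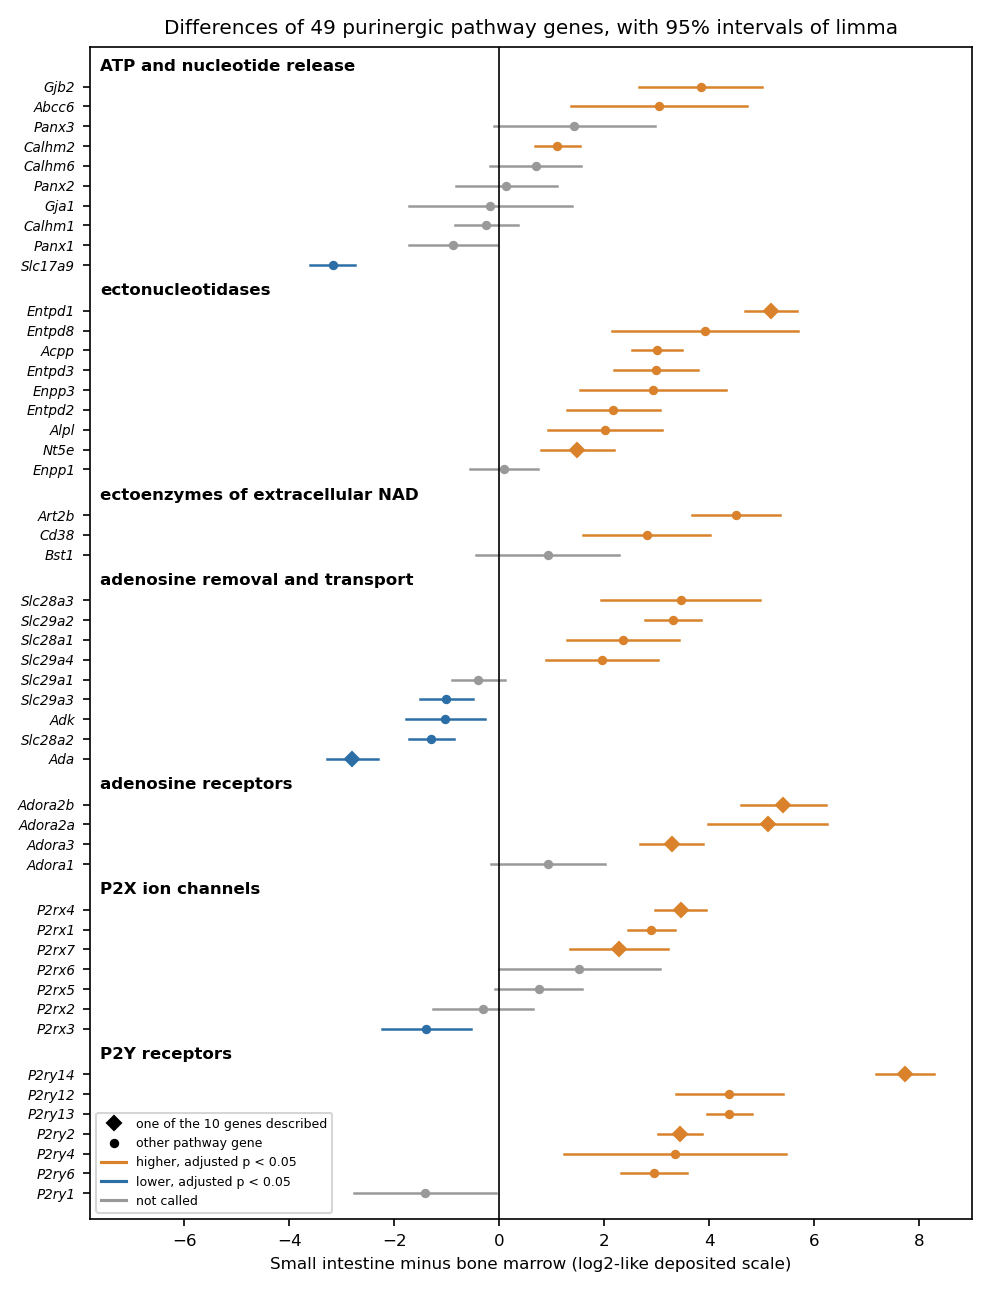
Difference between small intestine and bone marrow on the deposited log2-like scale for 49 pathway genes by role, with 95% intervals of limma, diamonds for the 10 genes described and grey for genes not called. The ectonucleotidases, adenosine receptors and P2Y receptors lie mostly to the right of 0, and adenosine removal and transport lies on both sides.

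Of 9 ectonucleotidases, Entpd1 and Nt5e included, 8 were called higher and none lower, beside 22.0% and 12.9% of all genes. Entpd3, a relative of CD39, rose by 2.98 ± 0.35 (limma adjusted p = 0.000246), from 2 reads in bone marrow to normalised counts of 12.01 to 18.6. Entpd2 had no read in any bone marrow library and 22 reads in the small intestine. Over the mean of the 4 small intestine libraries it was 2.21, 1.08, 0.341 and 0.369 in SI_6, SI_7, SI_10 and SI_11, close to the 2.26, 1.05, 0.33 and 0.365 of the epithelial list. Alpl, tissue-nonspecific alkaline phosphatase, Enpp3, a nucleotide pyrophosphatase, and Entpd8 also rose. Alpl lost its call after quantile normalisation (1.21, limma adjusted p = 0.0675) and without SI_10 (1.83, 0.0504), and Enpp3 was highest in SI_6, at 1.79 times the small intestine mean. Entpd8 ran from 145 in SI_6 to 5.93 in SI_11, highest in the library with the most epithelial RNA, and its difference was 3.92 ± 0.77 (limma adjusted p = 0.00424). Enpp1, which makes AMP and pyrophosphate from ATP, had 64.1 to 91.1 in bone marrow and 52.2 to 125.5 in the small intestine and was not called (0.09 ± 0.28).

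Among the genes of extracellular NAD, Art2b, an ADP-ribosyltransferase known to modify P2RX7, rose from 4 reads in bone marrow to normalised counts of 54.6 to 83.2, a difference of 4.51 ± 0.37 (limma adjusted p = 3.46e-05). Cd38, which consumes NAD, rose by 2.81 ± 0.53 (adjusted p = 0.00336). Within the small intestine, Cd38 was 929, 513, 161 and 203 in SI_6, SI_7, SI_10 and SI_11, high where the epithelial and the B and plasma cell genes were high. Bst1, related to Cd38, was not called (0.92 ± 0.60).

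Transporters and enzymes that remove adenosine moved both ways. With Ada, 4 of 9 were higher and 4 lower, beside 22.0% and 12.9% of all genes. Slc28a2, a concentrative nucleoside transporter and the most abundant transporter on the list, fell by 1.30 ± 0.19 (limma adjusted p = 0.000839), from 2998 to 3690 in bone marrow to 1182 to 1600 in the small intestine. The equilibrative transporter Slc29a2 rose by 3.31 ± 0.23 (adjusted p = 1.6e-05), from 19.6 to 29.7 to 208 to 343. The lysosomal transporter Slc29a3 was lower, at -1.01 ± 0.22 (adjusted p = 0.00768). Slc29a1, the widely expressed transporter, was not called (-0.40 ± 0.22). Adk, adenosine kinase, was lower at -1.03 ± 0.33 (adjusted p = 0.0397) with overlapping groups, since SI_6 (140) lay among the bone marrow libraries. The call for Adk was lost when any 1 library other than SI_6 was left out (0.0667 to 0.106).

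Of 10 genes for release of ATP and nucleotides, 3 were higher and 1 lower, beside 22.0% and 12.9% of all genes. These counts do not set the class apart. Slc17a9, the vesicular nucleotide transporter that loads ATP into secretory vesicles, had 292, 364, 338 and 350 in BM_1, BM_3, BM_4 and BM_5 and 30.6, 41.6, 35.01 and 29.6 in the small intestine. The groups were far apart, and bone marrow held 9.82 times the small intestine mean (-3.17 ± 0.19, limma adjusted p = 7.23e-06). Calhm2, a channel protein, rose by 1.10 ± 0.19 (adjusted p = 0.002), from 60.0 to 84.2 to 145 to 177, and under median centring it was 0.20 (0.757). Gjb2, a connexin, rose from 1 read in bone marrow to normalised counts of 13.1 to 87.3, highest in SI_6. Panx1, the channel best known for ATP release, had 64.6 to 91.9 in bone marrow and 17.5 to 68.8 in the small intestine and was not called (-0.89 ± 0.36, limma adjusted p = 0.0957), but was called lower without SI_6 (-1.14, adjusted p = 0.0363) and after median centring (-1.79, 0.00105).

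Within the small intestine most of the 10 genes did not follow the epithelial genes. SI_6, which held the most epithelial RNA, had the lowest level of 7 of the 10 genes and the highest of 1, Adora3. Relative to the mean of the 4 libraries, Adora2a was 0.499, 0.83, 1.29 and 1.38 and Adora2b 0.451, 0.871, 1.32 and 1.35 in SI_6, SI_7, SI_10 and SI_11. On the same scale the epithelial list was 2.26, 1.05, 0.33 and 0.365, and the list of 10 B and plasma cell genes 1.71, 1.26, 0.274 and 0.752. Entpd1 was 0.699 in SI_6 and 1.06 to 1.12 in the others, and P2ry14 was 0.693 and 1.02 to 1.18. The eosinophil list was also lowest in SI_6, at 0.785, 1.03, 0.995 and 1.19. In the same library order, 13 mast cell and basophil genes were 0.621, 0.94, 1.25 and 1.19, and the dissociation genes 0.874, 0.901, 1.07 and 1.16. Most of the mast cell and basophil sum was Hdc, at a small intestine mean of 11510, with Kit at 1189 and Gata2 at 842. The rest of that list had few reads and shared no order: Mcpt1 was highest in SI_6 and Mcpt2 in SI_7. The endothelial (0.869) and neutrophil precursor (0.89) sums were lowest in SI_6 too. Other sums, such as fibroblast (1.82) and macrophage and dendritic cell (1.08), were highest in SI_6. What these cells or the handling contributed to the 10 genes was not tested. Of the 38 other pathway genes with reads in the small intestine, SI_6 was the highest library for 19.

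**Figure D4:**
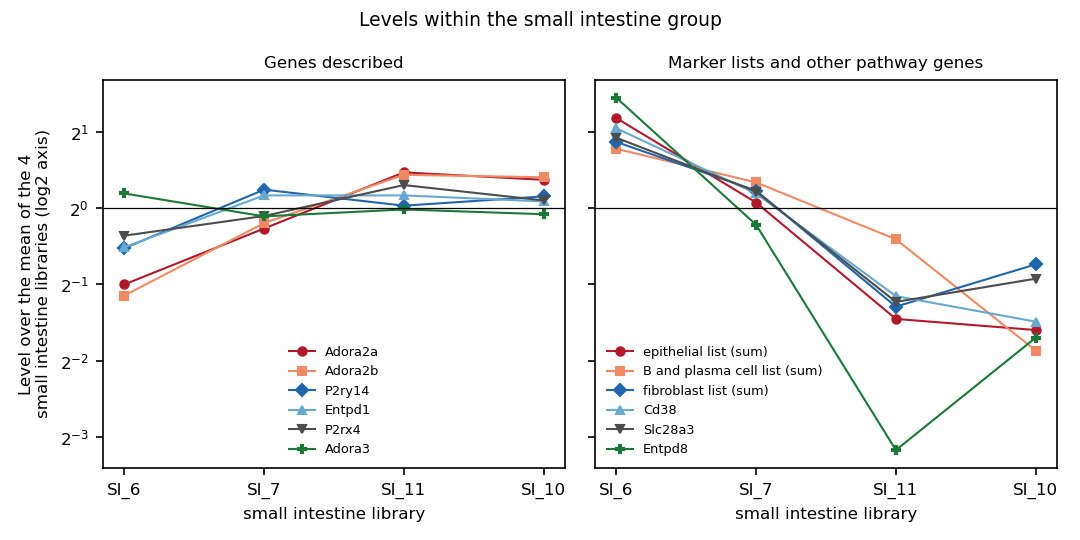
Level in each small intestine library over the mean of the 4 libraries (log2 axis), with libraries ordered by falling epithelial sum, for 6 of the genes described (left) and for marker list sums and 3 other pathway genes (right). Adora2a, Adora2b, P2rx4, P2ry14 and Entpd1 are lowest in SI_6, where the epithelial list and Cd38, Slc28a3 and Entpd8 are highest.

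Slc28a3, a concentrative nucleoside transporter, was highest in SI_6, where the epithelial and the fibroblast lists were highest. Its normalised counts were 295, 180, 82.1 and 66.4 in SI_6, SI_7, SI_10 and SI_11. Over the small intestine mean these were 1.89, 1.16, 0.526 and 0.426, and the fibroblast list was 1.82, 1.17, 0.599 and 0.408. In bone marrow, BM_5 was the highest library for 5 of the 10 genes and for 24 of 38 other pathway genes with reads there.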

How the data were processed

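RNA-seq libraries of sorted eosinophils, 4 from bone marrow and 4 from small intestine, were built on amplified cDNA and sequenced as single-end reads. The authors aligned them to GRCm38, counted them per gene of Ensembl release 86, and deposited variance-stabilised values of DESeq2 (R 4.0.3, per the submitters' processing notes) on a log2-like scale. The aligner, the strand setting and the handling of reads with several matches were not given in the sources used here.

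The transformation was inverted from its lowest value, 0.92971568. The inverted values, multiplied by size factors, were whole reads within 0.05 for 100% of genes in every library, with a largest deviation of 0.0061 reads. Depth limits precision most for 22177 genes, those averaging under 10 reads. No pair of libraries agreed within counting noise.

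Tissues were compared with limma 3.58.1 in R 4.3.3 (lmFit, eBayes, 2-sided, 8 libraries, no covariate, no filter) in place of the count model of the study, since the deposited unit is log2. Levels per kb used the union of exons in GENCODE M21. Motifs were counted in RefSeq promoter windows. Other steps used Python 3.11.15 with matplotlib 3.10.9, scipy 1.17.1, pandas 2.3.3 and numpy 2.4.6. The fit was also run on simulated reads. These had a dispersion shared by all genes and far fewer changed genes than were called here, so that run does not bear on the calls.

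The 10 genes and the lists were chosen with earlier results of these data known. The genes named are the 10 genes and the other genes of the pathway list, with the neighbours of P2ry14 and Adora3 added after their values were seen. In all, 18 alternatives were tried, 17 planned and 1, leaving out SI_6 and BM_5, added after seeing the data.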

Additional observations from a re-analysis of the deposited data

Results flagged for a closer look

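For each of 96 groups of 4 libraries (a pathway gene in a tissue), the gap of the most extreme library to its nearest neighbour was divided by the range of the group. In 15 groups this share passed the 95% critical value of Dixon's test, and in 6 of the 15 the other 3 libraries were tied, as happens for genes with few reads. Independent groups of normal values would give 4.8 by chance. Normalised counts are skewed and the groups share the same libraries, so 15 against 4.8 is no test of an excess.

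Of the 10 genes described, Entpd1 was set apart in both tissues. BM_1 was the highest bone marrow library, with a share of 0.899 (524 against 458 to 465), and SI_6 the lowest small intestine library, with a share of 0.85 (12304 against 18671 to 19796). SI_6 was also the highest library for Gjb2 (0.859) and P2ry1 (0.84).

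BM_5, the bone marrow library with reads for the most genes, was the highest for Panx3, Gjb2, Calhm1, Entpd3 and Entpd8 (each a share of 1), for P2ry4 (0.9), Enpp3 (0.883), Bst1 (0.879) and Enpp1 (0.863). Slc29a4 was set apart by BM_1 in bone marrow (share of 1) and by SI_11, the lowest, in the small intestine (0.932).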

How the results depend on the processing

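Over 18 alternatives for each of the 10 genes, 178 of 180 differences kept direction and side of the threshold. The exceptions were Nt5e after median centring (0.58, adjusted p = 0.321) and after quantile normalisation (0.62, adjusted p = 0.126). The largest adjusted p of any other gene of the 10 was 0.0331 (limma), for P2rx7 without SI_6 and BM_5.

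The 5 other pathway genes called lower became 10 after median centring, 8 after quantile normalisation and 8 on RPM, and 3 to 7 on leaving out 1 library. The median difference of all genes was 0.37 as deposited, -0.53 median-centred, -0.03 quantile-normalised, 0.05 on RPM and 0.89 with limma voom.

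Genes that were not called changed sign under some settings. Median centring gave Panx2 -0.77, Calhm6 -0.21, Enpp1 -0.81 and P2rx5 -0.15. Quantile normalisation gave Panx2 -0.87, Calhm6 -0.36, Enpp1 -0.22, Bst1 -0.08, Adora1 -0.005 and P2rx5 -0.05. Voom gave Calhm1 0.01, RPM Enpp1 -0.13, a pseudocount of 5 Gja1 0.04, and leaving out SI_6 and BM_5 Enpp1 -0.03. On leaving out 1 library, Panx2 ran from -0.13 to 0.44, Gja1 from -0.51 to 0.53 and Enpp1 from -0.14 to 0.26. The cause was not tested.

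Among the 39 other pathway genes, 26 alternative values lost a call, 26 gained one, 20 of genes without a call changed sign, and 615 kept their direction and side of the threshold. No paired analysis was possible because no replicate number occurs in both tissues. Genes with few reads, such as Adora2b in bone marrow, limit the size of a change more than its direction.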
